A study of Sus scrofa with 12 samples.

Results

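Left ventricular gene expression was compared between 4 heart failure pigs given the KBD vector (HF KBD) and 4 given saline (HF saline), chosen by their treatment labels as 8 of the 12 animals sequenced. All 8 were wildtype female Ossabaw swine, a strain prone to obesity, fed a high-fat diet starting at the age of 2 months, and all had the aorta narrowed by a band. The HF KBD animals were infused intravenously right after banding with AAV9sc.KBD at 8e12 vector genomes per kg, and hearts were taken 6 months after treatment. Both groups therefore carried the diet and the surgery, and the difference between them was the vector against saline. No group was given a vector without the KBD, so the peptide and exposure to the vector itself cannot be told apart. The remaining 4 animals, chow controls with neither surgery nor infusion, were part of the gene filter and of the model, where they share the estimate of spread, and are set beside the heart failure groups for a few genes at the end. The deposited table held 35670 gene rows, of which 13476 had enough counts to be tested.

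AKAP6, also called mAKAP, is a scaffold protein of the cardiomyocyte nuclear envelope that gathers protein kinase A, phosphatases, phosphodiesterase 4D, calcineurin and the kinase RSK3 (gene RPS6KA2). RSK3 bound to this scaffold phosphorylates serum response factor (SRF), a transcription factor that drives sarcomere, cytoskeleton and immediate early genes in concentric growth of heart muscle cells. The kinase binding domain (KBD) peptide is the stretch of AKAP6 that holds RSK3, and when expressed alone it competes for that contact. It acts on protein binding and kinase location, so the mRNA level of the scaffold or the kinase is not itself its target. The vector row is named AAV9sc-cTnT-mAKAP-1694-1833-v3-WPRE-SV40, in which cTnT is the promoter of cardiac troponin T, active in heart muscle cells.

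Libraries of the 8 heart failure animals held between 9352931 and 11215390 gene counts. HF saline replicate 1 stood apart, with the lowest TMM scaling factor of its group, 0.937, and the lowest mean correlation with its group, 0.969. On the first principal component of the 8 animals it lay at 41.3, against -22.0 to 11.6 for the others. HF KBD replicate 2 also stood apart: its counts differed from the other 7 heart failure animals by a chi-square of 32.6 to 48.3 per degree of freedom, against 8.92 to 21.2 among the remaining 21 pairs. The chow controls, which share the estimate of spread, had mean correlations with their own group of 0.9616 to 0.9692, below HF saline replicate 1 at 0.9693. Chow control replicate 1 had the smallest library of the 12, with 7721638 gene counts. P-values measure the spread among the 12 sequenced animals only.

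The vector transcript was present in each treated heart, and for the AKAP6 gene itself the data left room for only a small difference. The vector level was 24.9, 42.8, 23.98 and 65.3 counts per 1e6 of the column total (CPM) in HF KBD replicates 1 to 4, with no vector count in any other animal, which allows up to 0.269 to 0.295 CPM (3 counts) in HF saline. The exact permutation p over the 8 animals (two-sided) was 0.0286, which is as low as this group size allows. Only animals given the vector can hold its transcript, so this p checks the treatment labels and nothing more. AKAP6 (ENSSSCG00000024517; chr7:66913541-67462147 in RefSeq's Sscrofa11.1 annotation, matched by symbol) was at 91.6, 102.7, 98.7 and 91.1 TMM-scaled CPM in HF KBD and 99.4, 95.9, 98.2 and 88.6 in HF saline. The ranges overlapped almost wholly. The log2 fold change of AKAP6, HF KBD over HF saline, was 0.0075 with a 95% interval from -0.17 to 0.19. All its deposited counts were whole, so none of its reads had been divided with another row.

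**Figure D1:**
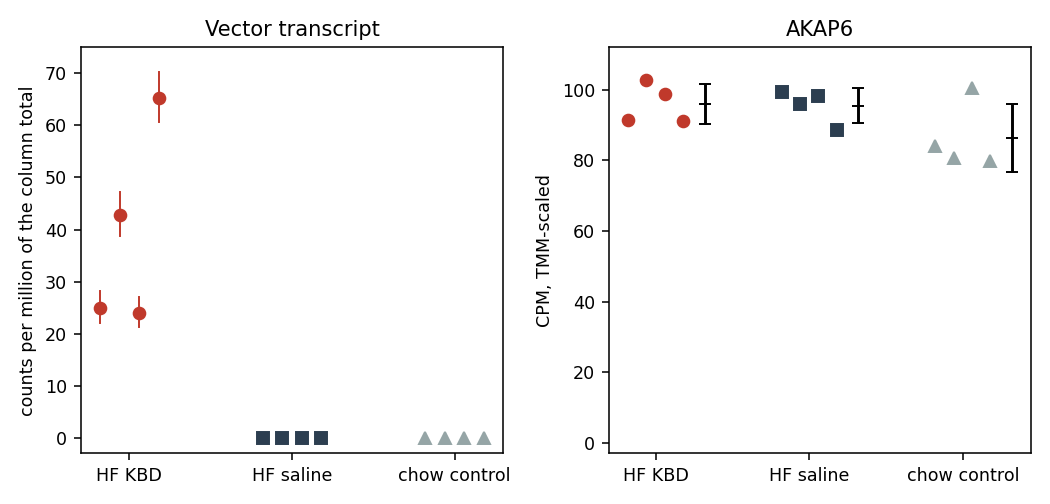
Left, the vector transcript per animal in counts per 1e6 of the column total with Wilson 95% intervals, which cover counting error only; right, AKAP6 per animal in TMM-scaled CPM with mean and SD (n = 4) as bars. Only the 4 HF KBD animals have vector counts, between 23.98 and 65.3, while AKAP6 lies between 88.6 and 102.7 in all 8 heart failure animals.

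Across all genes the vector and saline groups could not be separated at this group size. No gene of 13476 (0%) passed an adjusted p under 0.05 (edgeR quasi-likelihood F-test, Benjamini-Hochberg); after rounding, the lowest adjusted p was 1. An unadjusted p under 0.05 was found for 559 genes, 4.15% of those tested, with 313 (2.32%) higher and 246 (1.83%) lower in HF KBD; the DESeq2 Wald test gave 574 and limma-voom 667 such genes, with 0 called by either. The groups did not overlap for 372 genes (2.76%), 195 (1.45%) higher and 177 (1.31%) lower. These shares are the background for every count below. The data also bound how large a difference can have been: for 10940 genes (81.2%) the 95% interval of the log2 fold change lay within 2-fold in either direction, and for 7886 (58.5%) within 1.5-fold.

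The scaffold and its partners showed no difference past the test. Of 29 listed genes of the AKAP6 signalosome 28 were tested, and 0 had an unadjusted p under 0.05 in either direction. Their median log2 fold change was 0.0145, beside -0.0041 over all tested genes. Of the 28 intervals 27 lay within 2-fold, where 81.2% of all tested genes did. RPS6KA2, which encodes the kinase the peptide competes for, was at 7.40, 7.35, 5.48 and 7.32 CPM in HF KBD and 4.98, 6.95, 7.37 and 6.33 CPM in HF saline. The groups overlapped, with HF KBD replicate 3 the low animal of its group, and the log2 fold change was 0.10 (95% interval -0.36 to 0.56). SRF was at 66.7, 73.2, 77.9 and 84.8 CPM against 95.2, 73.8, 88.9 and 72.9 CPM, a log2 fold change of -0.13 (-0.37 to 0.11). The values interleaved. Among the other partners the extremes were PPP3CA, a calcineurin catalytic subunit, at a log2 fold change of -0.31 (-0.64 to 0.026), and PLCE1, a phospholipase C, at 0.50 (-0.52 to 1.51). The protein kinase A subunits PRKACA, PRKAR2A and PRKAR2B lay between -0.10 and 0.072. PDE4D, the scaffolded phosphodiesterase, had a log2 fold change of 0.012 (-0.45 to 0.47).

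Of 23 tested SRF target genes, 5 were higher in HF KBD at an unadjusted p under 0.05 and 0 were lower, with a median log2 fold change of 0.14. The 5 were EGR1 and JUNB, immediate early transcription factors, and ACTA2, TAGLN and ACTG2, contractile genes of smooth muscle, of which ACTA2 and TAGLN are also on the smooth muscle marker list. Others of these kinds had no such p: CNN1 and MYL9, of smooth muscle contraction, had log2 fold changes of 0.14 (95% interval -0.71 to 1.00) and -0.030 (-0.85 to 0.79), and the immediate early genes FOSB and EGR2 0.014 (-1.71 to 1.74) and 0.47 (-0.16 to 1.10). Among the sarcomere targets of heart muscle, ACTA1 (skeletal alpha actin) had a log2 fold change of -0.059 (95% interval -0.44 to 0.32), ACTC1 (cardiac alpha actin) of 0.038 (-0.46 to 0.53) and TPM1 (tropomyosin) of -0.047 (-0.30 to 0.20). The count rested on single animals: it was 1 without HF KBD replicate 3, 2 without HF saline replicate 3 or replicate 4, and 7 without HF KBD replicate 1. The median ran from 0.029 without HF saline replicate 4 and 0.048 without HF KBD replicate 2 to 0.27 without HF KBD replicate 1 and 0.32 without HF saline replicate 1. Without HF KBD replicate 3 the log2 fold change was 0.39 for ACTA2, against 0.65 with all animals, and 1.29 for ACTG2, against 2.15. ACTG2 rested on few counts, at 0.92, 1.04, 4.47 and 1.19 CPM in HF KBD and 0.77, 0.090, 0.48 and 0.37 CPM in HF saline.

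EGR1 was at 11.5, 76.2, 34.4 and 32.7 CPM in HF KBD and at 14.9, 13.7, 11.05 and 13.2 CPM in HF saline. HF KBD replicates 2 to 4 exceeded all saline animals, whereas replicate 1 fell among them. The log2 fold change of EGR1 was 1.55 (95% interval 0.52 to 2.58; edgeR adjusted p rounding to 1), and 0.99 without HF KBD replicate 2. JUNB ran from 8.02 to 93.2 CPM in HF KBD and from 11.7 to 15.1 CPM in HF saline, again with replicate 1 lowest and replicate 2 highest among treated animals. Its log2 fold change was 1.65, and 0.96 without HF KBD replicate 2. Among all 19 tested immediate early genes 17 had a log2 fold change above 0 and 2 (EGR1 and JUNB) an unadjusted p under 0.05, where 48.9% of all tested genes lay above 0. Of the 19 intervals 7 lay within 2-fold, where 81.2% of all tested genes did. Per animal, the list's median log2 deviation from the HF saline mean was -0.60, 0.50, 0.265 and 0.50 in HF KBD. In HF saline it was 0.025, 0.20, -0.23 and -0.093. The list's median log2 fold change was 0.23, with a range from 0.12 without HF KBD replicate 4 to 0.46 without HF saline replicate 2. The count was 1 with limma-voom, without HF KBD replicate 2 or 3, and without HF saline replicate 1, 3 or 4. It was 3 without HF KBD replicate 1. DUSP1, a phosphatase that ends MAP kinase signals, went the other way at -0.60 (-1.51 to 0.31).

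Genes of the fetal and hypertrophy program did not separate the groups, and most of their intervals were wide. Of these intervals 4 of 13 lay within 2-fold, where 81.2% of all tested genes did. Of 13 tested, 1 (MYH6) was higher at an unadjusted p under 0.05 and 0 were lower, and the median log2 fold change was -0.098. That median turned to 0.11 without HF saline replicate 1 and to 0.12 with limma-voom. NPPA, the atrial natriuretic peptide gene, was at 94.95, 86.2, 124.3 and 197.9 CPM in HF KBD and at 83.0, 185.2, 294.7 and 73.5 CPM in HF saline. Both groups spanned more than a 2-fold range, and the log2 fold change of -0.34 had an interval from -1.40 to 0.72 and turned to 0.14 without HF saline replicate 3. NPPB, the B-type natriuretic peptide gene used clinically as a marker of wall stress, was at 1.54, 3.94, 1.64 and 1.01 CPM against 11.7, 1.17, 6.88 and 2.02 CPM. HF saline replicates 1 and 3 were the high animals, and the log2 fold change of -1.42 had an interval from -3.54 to 0.70, a range that holds both 0 and a 10-fold lower level. Without HF saline replicate 1 the NPPB difference was -0.72. MYH6, the fast alpha myosin heavy chain, was at 1377, 995, 2762 and 1799 CPM against 1420, 1157, 1123 and 961 CPM, with a log2 fold change of 0.57 (0.036 to 1.11). HF KBD replicates 3 and 4 were above all saline animals and the other pair was not, and the log2 fold change was 0.26 without HF KBD replicate 3. All MYH6 counts were fractional, so its reads had been divided with another row, and no identifier carried the symbol of its close copy MYH7. The MYH6 to MYH7 balance is therefore not given.

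Calcium cycling genes, which set contraction and relaxation, had mostly narrow intervals, as did most tested genes. Of 19 tested, 17 intervals lay within 2-fold, where 81.2% of all tested genes did, and the median log2 fold change was 0.018. ATP2A2, the sarcoplasmic reticulum calcium pump, was at 3993, 3759, 4785 and 4112 CPM in HF KBD and at 3766, 3884, 4453 and 3587 CPM in HF saline, a log2 fold change of 0.086 (-0.13 to 0.30). PLN, its inhibitor phospholamban, had a log2 fold change of 0.023 (-0.13 to 0.18) and RYR2, the calcium release channel, of 0.097 (-0.16 to 0.36). The only member with an unadjusted p under 0.05 was TRDN, triadin of the release complex, at 0.21 (0.012 to 0.40). HRC was the widest, at -0.40 (-2.78 to 1.98). HF KBD replicate 1 held 36.5 CPM, where the other 7 heart failure animals held between 451 and 540 CPM. The chow controls, which share the fitted spread, held 45.7, 1106, 933.6 and 31.3 CPM. SLN, sarcolipin, was also wide, at -0.20 (-1.66 to 1.25).

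**Figure D2:**
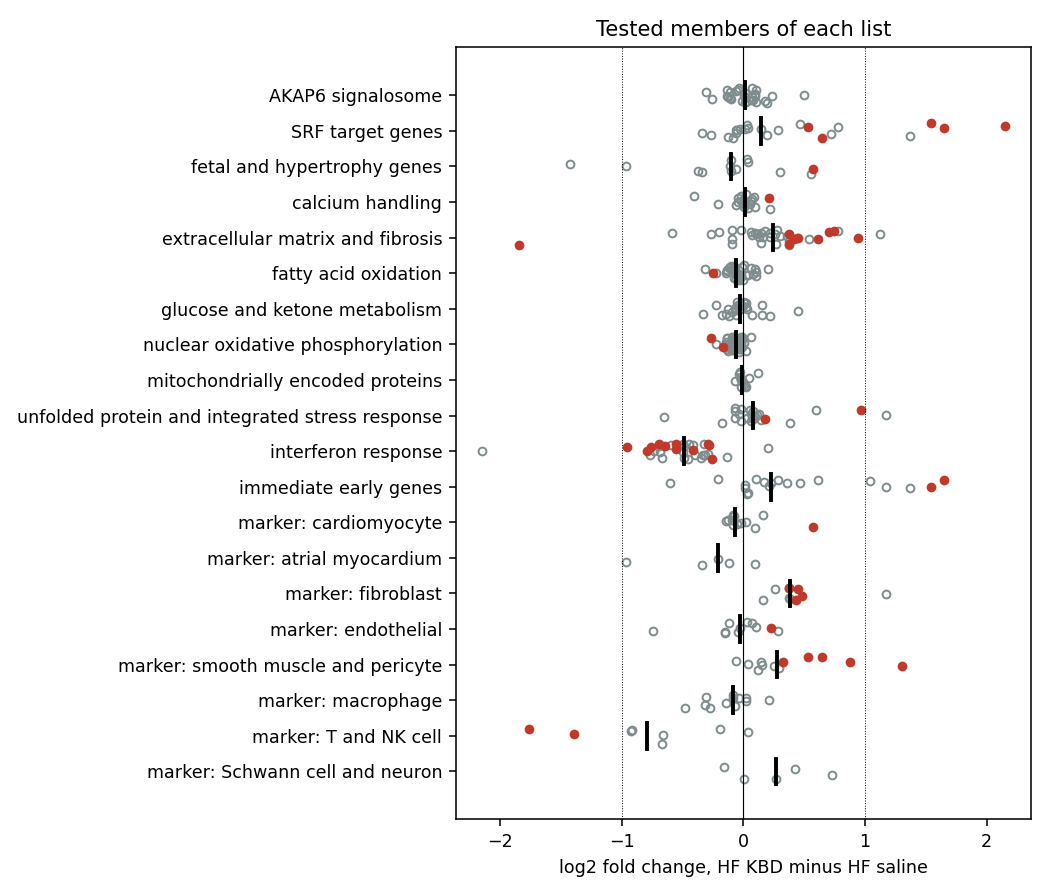
Log2 fold change, HF KBD minus HF saline, of each tested member of 20 gene lists with at least 5 tested members; filled points have an unadjusted p under 0.05, black bars are list medians and dotted lines mark 2-fold. The AKAP6 signalosome, calcium and oxidative phosphorylation lists sit near 0, the matrix, fibroblast and smooth muscle lists lie mostly to the right, and the interferon and T cell lists to the left, with 0 members passing an adjusted p under 0.05.

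Extracellular matrix genes leaned higher in HF KBD without any passing the test. Of 38 tested, 30 had a log2 fold change above 0, 8 were higher and 1 was lower at an unadjusted p under 0.05, and the median was 0.24. COL14A1, a collagen that sits on fibrils, was at 51.5, 86.1, 68.1 and 59.3 CPM in HF KBD and at 46.9, 41.8, 37.8 and 36.03 CPM in HF saline. Each treated animal exceeded each saline animal, and the log2 fold change was 0.70 (95% interval 0.33 to 1.08). FN1, fibronectin, was at 71.1, 166.6, 208.7 and 98.5 CPM against 66.7, 79.6, 69.4 and 67.1 CPM, so that HF KBD replicate 1 alone fell within the saline range; its log2 fold change was 0.95 (0.26 to 1.63). Of the fibrillar collagens, COL1A1 had a log2 fold change of 0.38 (-0.011 to 0.77), COL1A2 of 0.38 (0.092 to 0.67) and COL3A1 of 0.067 (-0.30 to 0.44). POSTN, periostin of activated fibroblasts, had 0.26 (-0.50 to 1.02; -0.029 without HF KBD replicate 2) and TGFB1, the profibrotic cytokine, 0.074 (-0.19 to 0.33). In the opposite direction SPP1, osteopontin, was at 0.51, 0.83, 1.55 and 0.46 CPM against 3.16, 0.99, 6.21 and 1.93 CPM, with HF saline replicate 2 inside the treated range, and its log2 fold change was -1.85 (-3.0 to -0.69). SPP1 rested on few counts. The number of matrix genes higher at an unadjusted p under 0.05 was 3 without HF KBD replicate 2 and 12 without HF KBD replicate 1, and the median was 0.17 and 0.30 in these fits and 0.15 without HF KBD replicate 3.

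Markers of fibroblasts and of smooth muscle and pericytes leaned the same way as the matrix genes. All 10 tested fibroblast markers had a log2 fold change above 0, 5 with an unadjusted p under 0.05, and their median was 0.38; DCN, COL1A1, COL1A2 and LUM stand in both lists. The summed fibroblast marker level was between 924 and 1440 CPM in HF KBD, between 806 and 883 CPM in HF saline and between 894 and 1330 CPM in chow controls. Without HF KBD replicate 2 the fibroblast median was 0.27 and the count 1, and the count was 2 without HF saline replicate 2 and 3 without HF saline replicate 4. For smooth muscle and pericytes 11 of 12 markers lay above 0, 5 with an unadjusted p under 0.05, with a median of 0.27. Their summed level was 753 to 877 CPM in HF KBD, 669 to 687 CPM in HF saline and 820 to 1000 CPM in chow controls. The count was 3 without HF KBD replicate 3 or without HF saline replicate 4. Neither sum overlapped between HF KBD and HF saline, and no marker of either list was at 0. In bulk tissue, a change in the number of cells of a type and a change in RNA per cell cannot be told apart. The part of these cell types in the matrix and SRF target values was not tested.

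MYH11, the smooth muscle myosin heavy chain, was at 38.9, 58.8, 129.9 and 85.9 CPM in HF KBD and at 36.6, 36.5, 30.9 and 23.0 CPM in HF saline. The lowest treated animal stood just above the highest saline animal, and the log2 fold change was 1.31 (95% interval 0.57 to 2.04). Most MYH11 counts were fractional (83.3% of the 12 values), so reads had been divided with a similar gene. PDGFRB, a receptor of pericytes and fibroblasts, was at 95.97, 137.1, 118.9 and 114.5 CPM against 89.1, 97.5, 92.0 and 92.2 CPM, a log2 fold change of 0.33 (0.12 to 0.54). The pericyte potassium channel genes KCNJ8 and ABCC9 did not follow, at -0.062 (-0.39 to 0.27) and 0.041 (-0.38 to 0.46). Cardiomyocyte markers, which define the tissue, were abundant in each animal: the 12 measured summed to between 48400 and 68600 CPM in the 8 hearts, with a median log2 fold change of -0.067. The atrial gene BMP10 was at 0 in all 8.

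Interferon-stimulated genes lay mostly lower in HF KBD. Of 33 tested, 32 had a log2 fold change below 0, against 51.1% of all tested genes, and 11 were lower and 0 higher at an unadjusted p under 0.05, where the background share lower was 1.83%. The median log2 fold change was -0.49, and 0 members passed the adjusted threshold. IRF9 (ENSSSCG00000002002; chr7:75133800-75139641), the subunit of the interferon-activated complex that binds DNA, was at 30.6, 26.7, 24.4 and 24.99 CPM in HF KBD and at 39.7, 34.1, 74.2 and 58.7 CPM in HF saline. The groups did not overlap, and HF saline replicates 3 and 4 were the high animals. The log2 fold change of IRF9 was -0.95 (95% interval -1.43 to -0.47; edgeR adjusted p rounding to 1). MX2, an antiviral GTPase, was at 65.9, 74.97, 78.7 and 76.98 CPM against 96.8, 88.9, 109.7 and 100.2 CPM, with no overlap and a log2 fold change of -0.42 (-0.87 to 0.043).

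Among the further interferon genes with an unadjusted p under 0.05 were IFI44L (-0.79), DHX58 (-0.75), RIGI (-0.69), IFI44 (-0.64), IFIT3 (-0.55), B2M (-0.42), IFIT1 (-0.29), IFIT5 (-0.28) and STAT2 (-0.26) on the log2 scale. RIGI and DHX58 encode cytoplasmic sensors of viral RNA, B2M the light chain of class I antigen presentation. IRF1, a factor of the interferon gamma pathway, was the member above 0, at 0.21 (-0.68 to 1.09). The count moved with single animals of both groups: 4 members were lower without HF saline replicate 3, with a median of -0.33, and 18 without HF saline replicate 2, with a median of -0.64. The count was 16 without HF saline replicate 1, 7 without HF saline replicate 4, 6 without HF KBD replicate 2 and 8 without HF KBD replicate 4. Taken per animal, the median deviation of the 33 genes from the HF saline mean was -0.39, -0.57, -0.35 and -0.36 in HF KBD and -0.10, -0.47, 0.44 and 0.09 in HF saline. HF saline replicate 2 thus fell among the treated animals. The chow controls were below all 8, from -1.11 to -0.76.

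T and NK cell markers varied beside the interferon genes. Of 14 listed 8 were tested, 2 of them lower at an unadjusted p under 0.05, with a median log2 fold change of -0.79; the count was 1 without HF saline replicate 3, 3 without HF saline replicate 2 or HF KBD replicate 1, and 5 without HF saline replicate 1. The median was -0.41 without HF saline replicate 3 and -1.05 without HF saline replicate 1. Their summed level was 19.4, 15.2, 18.4 and 14.2 CPM in HF KBD and 12.1, 21.5, 38.6 and 33.3 CPM in HF saline. HF saline replicates 3 and 4, the animals with the highest IRF9, were also highest here, and HF saline replicate 1 was the lowest of the 8. CD3E, a T cell receptor subunit, was at 0.92, 0.10, 0.27 and 0.55 CPM against 1.34, 1.08, 1.94 and 2.02 CPM, which is few counts per library. Macrophage markers summed to 233 to 346 CPM in HF KBD and 223 to 441 CPM in HF saline, and none of 12 had an unadjusted p under 0.05. The part of immune cell content in the interferon values was not tested.

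**Figure D3:**
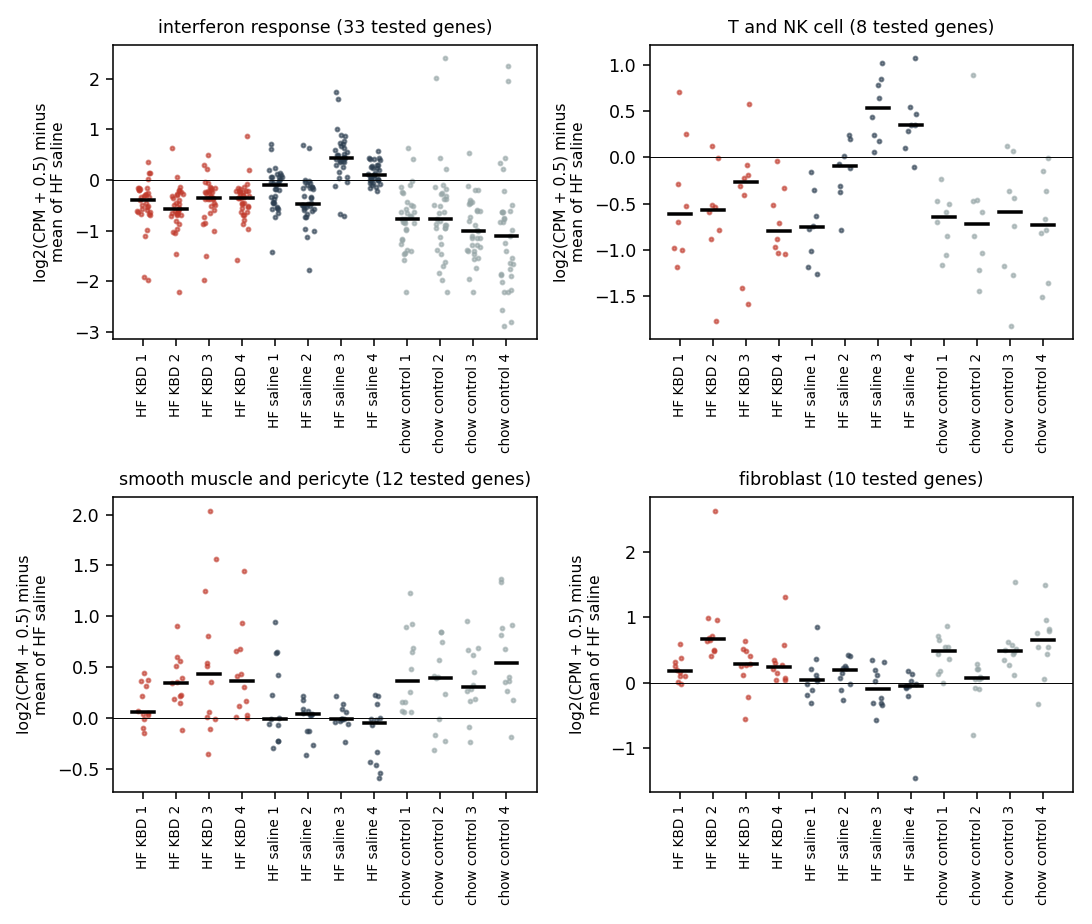
Log2(CPM + 0.5) of each tested gene minus its HF saline mean, per animal, for the interferon, T and NK cell, smooth muscle and pericyte, and fibroblast lists; bars are medians over the genes of an animal. HF saline replicates 3 and 4 are high in the immune panels, HF saline replicate 2 lies at -0.47 in the interferon panel, within the HF KBD range, and HF KBD replicate 2 is highest in the fibroblast panel at 0.67.

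Genes of energy metabolism had mostly narrow intervals. All 47 tested nuclear genes of oxidative phosphorylation had intervals within 2-fold, where 81.2% of all tested genes did. Of the 47, 44 lay below 0, against 51.1% of all genes, but the median log2 fold change was only -0.058. Without HF KBD replicate 2 that median was 0.015, so the direction rested on this animal, while the mitochondrially encoded genes had a median of -0.010 over 12 tested. NDUFC2 and NDUFB8, subunits of complex I, were the members with an unadjusted p under 0.05, at -0.26 (95% interval -0.44 to -0.090) and -0.17 (-0.33 to -0.010). All NDUFC2 counts were fractional. A further complex I subunit, NDUFS6, was outside the list and is among the genes named by smallest p: it was at 150.6, 135.6, 139.3 and 156.6 CPM in HF KBD and at 180.6, 178.4, 173.7 and 169.2 CPM in HF saline. The groups did not overlap, and the log2 fold change of NDUFS6 was -0.27 (-0.41 to -0.13).

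Of 32 fatty acid oxidation genes, 1 was lower at an unadjusted p under 0.05: FABP3, the heart's fatty acid carrier, at -0.25 (-0.46 to -0.038). PDK4 blocks glucose oxidation and responds to feeding. It spread from 1594 to 3039 CPM in HF KBD and from 1673 to 3491 CPM in HF saline. In the chow controls, which share the fitted spread, it ran from 36.9 CPM in replicate 1 to 2611 CPM. Its log2 fold change of -0.13 between the heart failure groups had an interval from -1.94 to 1.68. Among 26 glucose and ketone genes 0 had an unadjusted p under 0.05. SLC2A1, the basal glucose transporter, was at 37.5, 38.9, 36.2 and 37.5 CPM in HF KBD and at 28.2, 28.3, 29.6 and 23.6 CPM in HF saline. These ranges did not overlap, although the log2 fold change of 0.45 had an interval from -0.049 to 0.95. SLC2A1 varied by 1.13 and 2.65 CPM (SD, n = 4) in these groups and by 17.4 CPM in the chow controls, which share the fitted spread.

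Protein folding and stress genes gave 2 of 25 tested higher at an unadjusted p under 0.05 and 0 lower, with a median log2 fold change of 0.077. DNAJC3, an endoplasmic reticulum co-chaperone, was at 31.4, 33.9, 32.96 and 32.6 CPM against 30.6, 27.9, 29.8 and 27.1 CPM, without overlap but by a log2 fold change of just 0.18 (0.015 to 0.35). PSAT1, of serine synthesis, had 0.97 (0.17 to 1.77) on about 1 to 5 CPM. HSPA5, the main chaperone of that compartment, had 0.064 (-0.11 to 0.24).

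The genes with the smallest p-values whose groups did not overlap were then listed, 10 in each direction, with a mean of at least 5 CPM in a group. Their selection used these values, so they are a description. Higher in HF KBD were AFF4 (0.94), ACE (0.63), C1QTNF3 (1.03), ISLR (0.81), COL14A1 (0.70), RAB9B (0.65), MYH11 (1.31), ART3 (0.36), HTRA3 (0.60) and PLEKHG5 (0.37), with log2 fold changes in parentheses. ACE, the angiotensin-converting enzyme (chr12:15394487-15414609), was at 54.2, 71.2, 68.3 and 73.6 CPM in HF KBD and at 40.9, 51.98, 32.6 and 47.4 CPM in HF saline. The lowest treated value was just above the highest saline value, and the interval of the ACE difference ran from 0.32 to 0.94. C1QTNF3, a secreted adipokine relative of C1q, was at 6.78, 8.70, 10.2 and 12.3 CPM against 3.64, 6.41, 4.07 and 4.40 CPM (interval 0.51 to 1.56). AFF4, a scaffold of the super elongation complex, was at 5.96, 10.7, 7.94 and 8.51 CPM against 4.40, 2.98, 5.14 and 4.68 CPM, all on fractional counts.

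Among those lower in HF KBD were TOR3A (-1.09), ANKS1A (-0.45), IRF9 (-0.95), NDUFS6 (-0.27), NENF (-0.59), GTF2F2 (-0.44), CASP8 (-0.62), TBC1D32 (-0.58) and GALM (-0.49). TOR3A, a torsin ATPase of the endoplasmic reticulum, was at 2.36, 2.49, 3.47 and 2.47 CPM in HF KBD and at 6.42, 3.79, 7.66 and 5.23 CPM in HF saline. HF saline replicate 2 came nearest to the treated animals. NENF, the secreted protein neudesin, was at 26.3, 31.5, 31.5 and 26.6 CPM against 38.5, 37.0, 50.2 and 49.2 CPM. CASP8, the initiator caspase of death receptors, was at 6.47, 5.18, 5.02 and 4.58 CPM against 7.37, 6.77, 9.50 and 8.98 CPM, on fractional counts. Without HF saline replicate 1 the higher genes named had log2 fold changes from 0.35 to 1.38 and the lower genes named from -1.06 to -0.25.

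**Figure D4:**
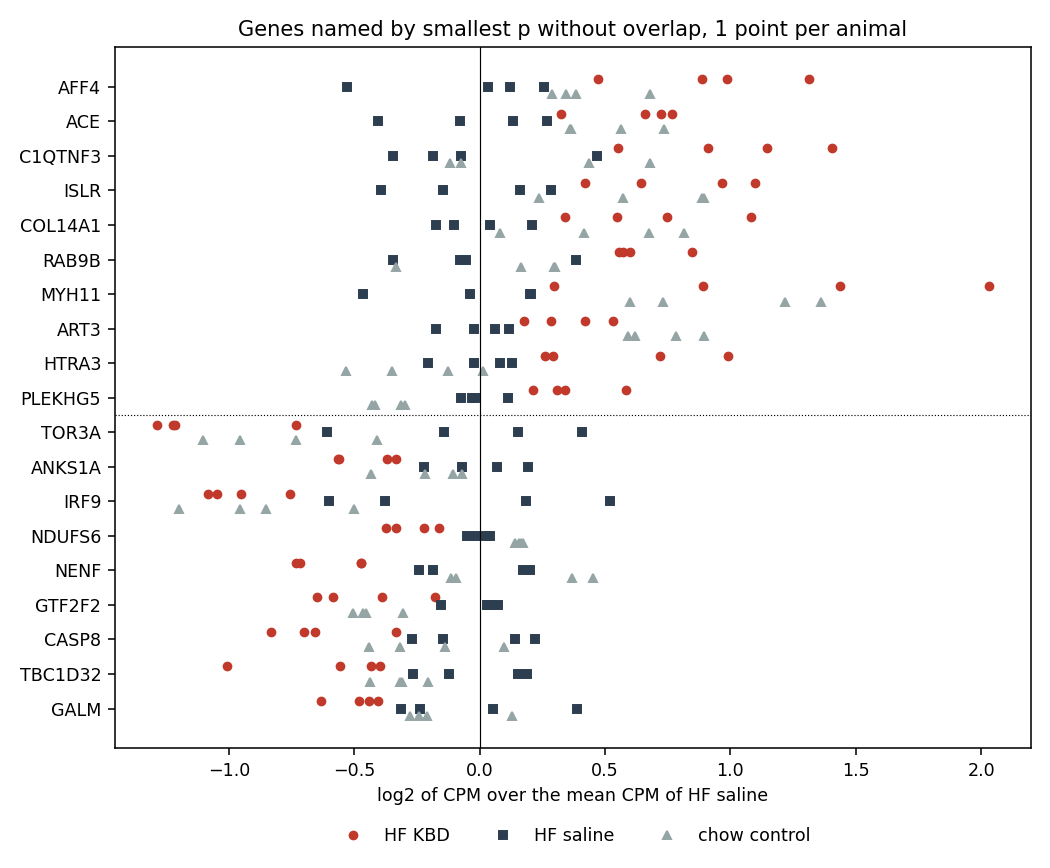
Log2 of each animal's CPM over the HF saline mean for genes with the smallest p and no overlap between HF KBD and HF saline. The red HF KBD points lie clear of the dark HF saline squares by selection; the grey chow control triangles, whose levels were no criterion, lie near HF KBD for IRF9 and ISLR and on the far side of HF saline for PLEKHG5.

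The chow controls place some of these differences, with the caution that the comparisons share animals. HF saline enters both HF KBD against HF saline and HF saline against chow control. HF KBD likewise enters both the direct comparison, by which these genes were picked, and HF KBD against chow control. Each contrast with chow control also carries the diet and the banding. IRF9 had 26.7 CPM ± 2.81 (SD, n = 4) in HF KBD, 51.7 ± 18.3 in HF saline and 28.6 ± 5.88 in chow controls. MYH11 had 78.4 ± 39.3, 31.7 ± 6.39 and 64.0 ± 16.2 CPM in the same order, and ACE 66.8 ± 8.72, 43.2 ± 8.43 and 61.7 ± 7.91 CPM. In these 3 genes, picked after their values were seen, the treated mean was nearer to chow control than the saline mean was. PLEKHG5, a guanine nucleotide exchange factor, had instead 22.7 ± 2.56, 17.6 ± 1.00 and 13.7 ± 0.638 CPM, and passed the test in HF KBD against chow control (log2 fold change 0.73, edgeR adjusted p = 0.0311). NDUFS6 had 145.5 ± 9.78, 175.5 ± 5.05 and 195.9 ± 1.98 CPM and fell in HF KBD against chow control (log2 fold change -0.43, edgeR adjusted p = 0.0311). ART3 fell in HF saline against chow control (-0.73, edgeR adjusted p = 0.0171) and had -0.37 in HF KBD against chow control (edgeR adjusted p = 0.186). Most ART3 counts were fractional (91.7% of the 12 values), so its reads had been divided with another row. Of all tested genes, 0.26% passed in HF saline and 0.0519% in HF KBD against chow control, and the direct comparison passed none.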

How the data were processed

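RNA from the left ventricle was poly(A)-selected and sequenced, 1 library per animal, 4 animals per group and 1 batch label, per the labels. The authors deposited RSEM expected counts per gene, from STAR 2.7.10a and RSEM 1.3.1 on Sscrofa11.1 per the submitters' processing notes; strandedness and annotation release are not given in the sources used here, so overlapping and antisense genes are uncertain. RSEM divides ambiguous reads, and 4.54% of gene values were not whole. The deposited expected counts were rounded. The vector row, at most 0.00653% of a library, was kept out of library sizes and gene tests. Symbols were matched for 15623 of 35670 identifiers, 84.2% of tested genes, and RefSeq positions on Sscrofa11.1 were joined by symbol alone.

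Genes passed edgeR's filterByExpr (minimum count 10, minimum total 15) over 3 groups. Libraries were TMM-scaled, and 12 animals were fitted in 1 model with 1 mean per group by edgeR 4.0.16's robust quasi-likelihood F-test in R 4.3.3, with Benjamini-Hochberg adjustment over all tested genes. The standard error is the log2 fold change over the square root of F; 95% intervals use the t distribution of the fit. CPM here is per 1e6 of TMM-scaled library size, except for the vector. CPM values do not allow comparing levels between genes, since gene length is not accounted for. The fit was tested on simulated data. Alternatives were DESeq2 1.42.0, limma 3.58.1 voom with quality weights, DESeq2-type size factors, other filters, only 8 animals, unrounded counts, 1 surrogate variable (sva 3.50.0), an adjusted p under 0.10, and leaving out each heart failure animal; applying them to gene lists was decided after seeing the data. No pair of libraries agreed within sampling noise (chi-square at least 8.92 per degree of freedom).

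Named genes are a panel of 13 (12 tested), up to 4 members per list with the smallest p, and 10 genes per direction with the smallest p, no overlap, a symbol and at least 5 CPM on average in a group; other list members given with values were chosen after their values were seen. The 26 lists and the comparison were chosen with earlier results of these data known. List counts and medians are descriptions without a test. Some genes that meet these rules are not reported here.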

Additional observations from a re-analysis of the deposited data

Results flagged for a closer look

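Within a group of 4 animals, a value was looked at again when its gap to the nearest other animal, divided by the range of the 4, passed Dixon's 95% critical value; 149 groups were examined and 11 met this. Chance flags about 1 in 20 groups. Among library measures, HF saline replicate 1 had the lowest TMM factor (gap 0.851 of the range), the lowest mean correlation with its group (0.858) and the highest share of counts in the 10 top genes (0.863; 22.6% of counts). HF KBD replicate 4 had the fewest genes with a count in its group (0.905; 17946 genes).

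Among genes in HF KBD, replicate 3 was apart for ACTG2 (4.47 CPM, gap 0.925), TOR3A (3.47 CPM, 0.89) and RPS6KA2 (5.48 CPM, lowest, 0.961). Replicate 2 was highest for RAB9B at 44.6 CPM (0.86), and replicate 1 for NDUFC2 at 200.5 CPM (0.867). In HF saline, replicate 2 was lowest for the potassium channel gene KCNJ3 at 17.2 CPM (0.893), and replicate 1 was highest for the skeletal muscle gene MYBPC2 at 2.68 CPM (0.896). No cause was tested for any of these.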

How the results depend on the processing

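The count of genes passing the adjusted threshold was 0 under all 17 alternatives, including an adjusted p under 0.10. The count at an unadjusted p under 0.05 ranged from 439 to 838, where 838 came without a filter on low counts, and from 439 to 625 when 1 animal was left out; the share of these higher in HF KBD was 56.0%, and 48.5% to 60.8% with 1 animal left out. Genes without overlap numbered 363 to 495, and genes with an interval within 2-fold 10490 to 11058. The vector level was 39.0 CPM per TMM-scaled library and 30.6 to 44.3 CPM with 1 treated animal left out. Over 69 named genes and 1104 gene and alternative pairs, 1087 kept their direction, 17 reversed and 0 passed, with a lowest adjusted p of 0.116. The log2 fold changes of PDK4 (0.37 with 1 surrogate variable) and MYBPC2 (0.33 with limma-voom) reversed; the cause was not tested. With 1 animal left out, the log2 fold change ran from -0.23 to 0.048 for ACTA1, -0.027 to 0.033 for AKAP6, -0.044 to 0.23 for COL3A1, -0.13 to 0.017 for COX2, -0.026 to 0.48 for HBB, -1.20 to 0.78 for MYBPC2, -0.64 to 0.14 for NPPA, -0.30 to 0.030 for PDK4 and -0.029 to 0.45 for POSTN. Counts of 1 or 2 members in a list also moved in some of these fits. Leaving out an animal leaves 3 in its group. No paired analysis was possible because the labels give no replicate numbers, and the numbers used here follow accession order and only name animals. At these depths, genes under about 1 CPM rest on few counts.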

Other observations

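Further marker lists covered other cell types a heart sample can hold. Endothelial markers had a median log2 fold change of -0.028 over 11 tested, with ENG, a TGF-beta co-receptor, at 0.23 (95% interval 0.035 to 0.42) and CLDN5, a tight junction protein, at -0.74 (-1.50 to 0.017). ENG was higher in HF KBD than in chow controls (log2 fold change 0.60, edgeR adjusted p = 0.0311). HF saline against chow control had 0.37 for ENG (edgeR adjusted p = 0.116). Its means were 199.4, 170.5 and 132.0 CPM in HF KBD, HF saline and chow controls. Schwann cell and neuron markers had a median of 0.27 over 5 tested (0.050 without HF KBD replicate 1 and 0.44 without HF KBD replicate 3), while TH and DBH, of noradrenaline synthesis, were at 0 in all 8 hearts. The 5 tested atrial markers had a median of -0.20, which was -0.59 without HF KBD replicate 4 and turned to 0.11 without HF saline replicate 3. WT1, a gene of epicardial and mesothelial cells, was at 7.60, 7.97, 8.86 and 6.50 CPM in HF KBD and 6.32, 20.4, 9.60 and 13.2 CPM in HF saline. HF saline replicate 2 was the high animal and the groups overlapped. Adipocyte (3 tested), erythrocyte (2), neutrophil, B cell, mesothelium and skeletal muscle markers (1 each) had too few tested members to describe as lists, and 0 of them had an unadjusted p under 0.05.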
